A study of Solanum lycopersicum with 2 samples.

Results

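Auxin acts on plant genes through 2 families of nuclear proteins, the auxin response factors (ARFs) and the Aux/IAA repressors, and both were examined here in young primary leaves of tomato (Solanum lycopersicum) seedlings. The overexpressor (OV-5-1) carries a transgene for overexpression of SlRBZ, and the wild type (CK-1) is the control, and both library names are used below. Each genotype is represented by 1 library of total RNA, so no difference has a replicate check and no test between genotypes was possible. The design text speaks of duplicates, so whether each column pools such duplicates or stands for 1 of them is unsure. The sources used here do not give the promoter of the transgene, the number of plants or whether they were pooled, and the SlRBZ level was not analysed here.

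Members were taken by name from the deposited table of FPKM, that is, fragment counts divided by length in kb and by library depth. Any locus whose gene symbol begins as ARF or IAA with a number, or as SAUR, GH3, LAX with a number, or TIR1, was included, whatever its level. This gave 23 of the 17803 gene loci, of which 13 were ARF loci and 10 Aux/IAA loci. A single ARF locus counts in all sums and counts below but is not described singly or plotted. The number of SAUR, GH3, LAX or TIR1 loci carrying such a symbol was 0. SLARF/XYL loci, which are named for sugar-cleaving enzymes, were not members. Many loci carry an identifier only, so the 23 are the loci named in the table and not the whole families. A RefSeq gene table lists 22 ARF and 18 Aux/IAA symbols for tomato. By name, IAA11, IAA1, ARF8, ARF10 and ARF19 matched no entry of it, and several others matched only as a synonym, so the table's numbering differs from the current one.

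ARFs are transcription factors that bind auxin response elements in promoters. At low auxin, Aux/IAA proteins bind ARFs and recruit corepressors. When auxin binds TIR1-type receptors, the Aux/IAA proteins are tagged and degraded, which frees the ARFs. Many Aux/IAA genes are themselves switched on by auxin, and both families are known to act in leaf initiation, vein formation, blade outgrowth and organ growth.

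As deposited, both families had a similar summed level in the 2 libraries, while 4 members were at least 2-fold higher in OV-5-1. The ARF loci summed to 278 FPKM in CK-1 and 253 in OV-5-1, and the Aux/IAA loci to 633 and 621 FPKM. Aux/IAA loci together therefore stood at 2.28 times the ARF sum in CK-1 and 2.45 times in OV-5-1. This ratio does not depend on how the libraries are scaled to each other. It does depend on the ARF2 locus, which the table joins with a second gene. That locus made up 40.8% of the ARF sum in CK-1 and 27.0% in OV-5-1. Without it the ratio was lower in OV-5-1 than in CK-1. ARF5 and ARF13-1 among the ARFs, and IAA11 and IAA10 among the Aux/IAA loci, exceeded their wild-type level at least 2-fold, and 0 of the 23 loci were at least 2-fold lower.

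Differences are OV-5-1 minus CK-1 in log2(FPKM + 1), a scale that understates the change of low genes. Of 17631 gene loci averaging 1 FPKM or more, which all 23 members did, 11.6% were at least 2-fold higher and 15.0% at least 2-fold lower. Against that background, 2 of 13 ARF loci (15.4%) and 2 of 10 Aux/IAA loci (20%) were called higher. These shares rest on 2 loci each and are no result about the families. The median difference was 0.10 for ARF loci and 0.30 for Aux/IAA loci, beside −0.05 over all gene loci, whose quartiles were −0.60 and 0.47. Among the 904 gene loci named by symbols alone, the shares were 14.5% and 19.4%, and the median was −0.10.

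**Figure D1:**
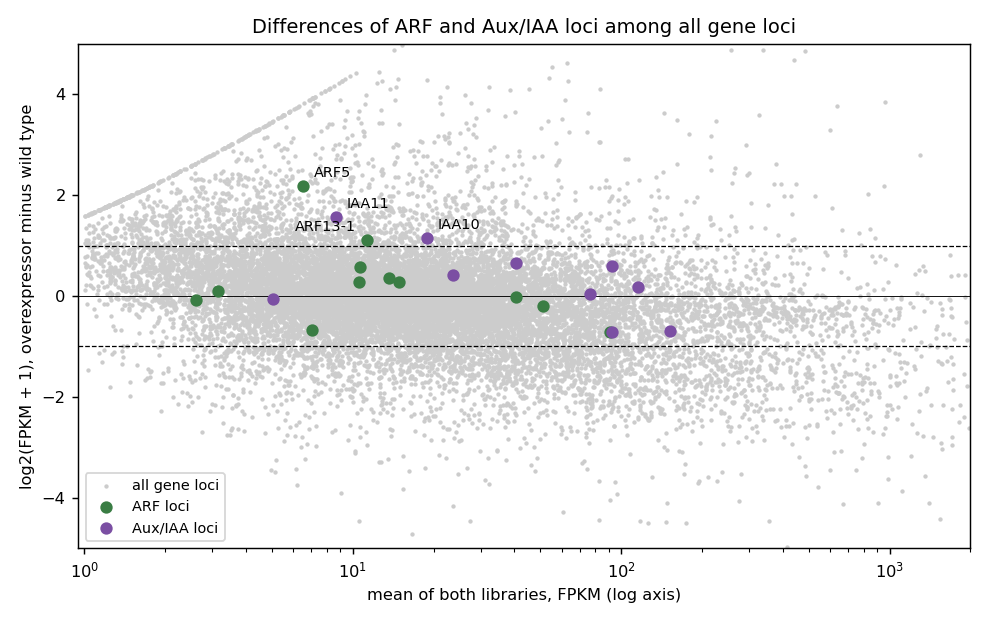
Difference in log2(FPKM + 1), OV-5-1 minus CK-1, against the mean FPKM of both libraries (log axis) for all gene loci (grey), 12 ARF loci (green) and 10 Aux/IAA loci (purple), with dashed lines at a 2-fold difference; 227 of the 17631 loci lie outside the window. The 4 named loci lie above the upper line, and none of the 22 lies below the lower one.

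The precision of a single library was taken from the steps of its low values, which put the totals behind the FPKM at 14.3 M fragments (M for mega) in OV-5-1 and 7.46 M in CK-1. At an assumed effective transcript length of 1 kb, 1 FPKM was then worth 14.3 and 7.46 fragments. The 95% intervals below use that length. At the same FPKM a longer transcript would have a narrower interval, and a shorter one a wider interval. IAA2, whose locus spans 887 bp, is under 1 kb. The intervals cover counting error only and say nothing of the spread between plants. By this measure the plain FPKM ratio of the overexpressor to wild type had an interval wholly above 1 at 10 of the 23 loci, wholly below 1 at 5, and on both sides of 1 at 8. No such counts are given here over all gene loci, so the counts of members are no result about the families. These counts hold for the values as deposited. Computed after seeing the data, they were 14, 4 and 5 with the libraries scaled to equal upper quartiles, 16, 0 and 7 at equal sums without the 100 most abundant gene loci, and 23, 0 and 0 at equal sums over all loci.

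The tissue label was set beside marker genes that the table names by symbol. The 7 photosynthetic leaf markers RBCS-1, RBCS-2A, RBCS-3B, CAB1B, CAB5, PSBO and PSBS were found at 11 loci. These summed to 258435 FPKM in CK-1 and 40546.5 FPKM in OV-5-1, and all 11 loci were at least 2-fold lower there. So were 15.0% of all gene loci, and 30.0% of those with a mean of 50 to 200 FPKM. The markers lie far above that level, and no share is given here for gene loci as abundant as they are. Of 11 markers of shoot meristem and leaf primordium, the table names 1, TKN2, at 6.61 FPKM in CK-1 and 3.47 in OV-5-1. No symbol from the lists for vasculature, root or flower and fruit was found. As many loci carry an identifier only, a missing symbol does not mean missing expression. These lists could therefore not show or exclude other tissues. The part of tissue makeup in the differences below was not tested, and in bulk leaf RNA fewer cells of a type and less RNA per cell cannot be told apart.

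Among the ARFs, ARF5 differed most. In Arabidopsis its namesake, MONOPTEROS, is an activator needed for vein formation and for the start of new organs. ARF5 (chromosome 4, minus strand, 62818343 to 62823978 in the table's coordinates, whose genome build is not given in the sources used here) read 1.71 FPKM in CK-1 (interval 0.904 to 2.94). In OV-5-1 it read 11.3 FPKM (interval 9.66 to 13.2). The intervals did not overlap, and the plain ratio of 6.64 had an interval of 3.94 to 14.0. On the log2(FPKM + 1) scale the difference was 2.19, or 4.56-fold, higher than at 97.2% of all gene loci and than at 96.2% of gene loci with a mean within 1.5 times its own. The wild-type value stands for about 12.8 fragments per kb, so its size is loosely bounded. ARF5 was the lowest of the 13 ARF loci in CK-1 and the ninth from the top in OV-5-1.

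ARF13-1, a synonym of ARF24 in RefSeq, was the other higher ARF (chromosome 5, minus strand, 64568906 to 64574482). It read 6.79 FPKM in CK-1 (interval 5.05 to 8.93) and 15.8 in OV-5-1 (interval 13.8 to 18.0). The difference was 1.11 on the log2(FPKM + 1) scale, or 2.15-fold, just past the 2-fold limit. It was larger than at 91.7% of gene loci of like level. Within the span of ARF13-1 the table also holds 3 short loci with no gene and no strand, of 320, 441 and 153 bp. They read 2.21, 2.21 and 133 FPKM in CK-1 and 5.79, 5.51 and 262 in OV-5-1, differences of 1.08, 1.02 and 0.97. The table does not say whether these are parts of the same transcript, and their values may not be independent of its own.

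The other activator-type ARFs, grouped by what their Arabidopsis namesakes are known to do, differed less. ARF8 and ARF8-1 are named for a factor of flower and fruit growth, ARF19 and ARF19-1 for one of root branching and leaf growth. ARF8 read 8.36 FPKM in CK-1 and 12.9 in OV-5-1, a difference of 0.57, and its ratio interval of 1.14 to 2.07 lay above 1. ARF8-1, on another chromosome, read 40.8 and 39.99 FPKM, with a ratio interval of 0.850 to 1.13. The span of ARF8-1 also holds 3 short loci with no gene and no strand, at 147, 96.7 and 22.05 FPKM in CK-1 and 59.2, 75.2 and 13.5 in OV-5-1. ARF8 stood at 20.5% of the ARF8-1 level in CK-1 and at 32.3% in OV-5-1. ARF19 read 11.9 and 15.5 FPKM (difference 0.35) and ARF19-1 read 9.44 and 11.6 FPKM (difference 0.28). The ARF19 ratio interval began at 1.01 and that of ARF19-1 reached from 0.934 to 1.67. At equal upper quartiles the ARF19-1 interval was 1.11 to 1.99, wholly above 1. Each of these pairs holds related sequences, and how reads that match both were counted is not given in the sources used here.

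Of the ARFs named for repressors, ARF2, in Arabidopsis a repressor with roles in senescence and organ size, was the highest ARF in both libraries, at 113 FPKM in CK-1 and 68.5 in OV-5-1. Its difference of −0.72 was short of the 2-fold limit, with a ratio interval of 0.550 to 0.663. Gene loci of like level had a median difference of −0.47, and 40.6% of them had a lower difference than ARF2. The table joins ARF2 with a neighbouring gene, Solyc03g118300.1, so the value cannot be split between them. ARF4, known in tomato fruit as a negative regulator of chlorophyll accumulation, read 54.5 and 47.6 FPKM (difference −0.19, ratio interval 0.770 to 0.989). ARF3, which in Arabidopsis acts with ARF4 on the lower side of leaves, read 13.3 and 16.3 FPKM (difference 0.28). ARF9 was among the lowest, at 2.69 FPKM in CK-1 and 2.51 in OV-5-1.

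ARF10 is named for an Arabidopsis factor whose transcript is cut by the microRNA miR160. It read 8.88 FPKM in CK-1 and 5.21 in OV-5-1, a difference of −0.67 with a ratio interval of 0.410 to 0.817. Of gene loci of like level, 14.9% had a lower difference than ARF10. ARF12, whose role is not described here, read 3.01 and 3.29 FPKM. At these levels a value rests on some 22.5 to 66.3 fragments per kb in CK-1.

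Set out by type, the 5 activator-named loci took 26.0% of the ARF sum in CK-1 and 36.1% in OV-5-1. The 4 repressor-named loci took 66.2% and 53.3%. ARF10, set apart as named for a target of miR160, and ARF12 and ARF13-1, not assigned, were counted in neither type. ARF2 alone went from 40.8% to 27.0% of the ARF sum, ARF5 from 0.615% to 4.48% and ARF13-1 from 2.44% to 6.22%. These shares are free of the scaling between libraries, but the ARF2 locus holds a second gene. Without ARF2, a setting chosen after seeing the data, the repressor-named loci took 42.9% in CK-1 and 35.9% in OV-5-1, and the activator-named loci 43.9% and 49.4%. Without ARF5 as well, also chosen after seeing the data, the shift was smaller. The repressor-named loci then took 43.3% in CK-1 and 38.3% in OV-5-1, and the activator-named loci 43.3% and 46.1%. The shares describe transcript levels of named loci and rest on class names carried over from Arabidopsis.

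**Figure D2:**
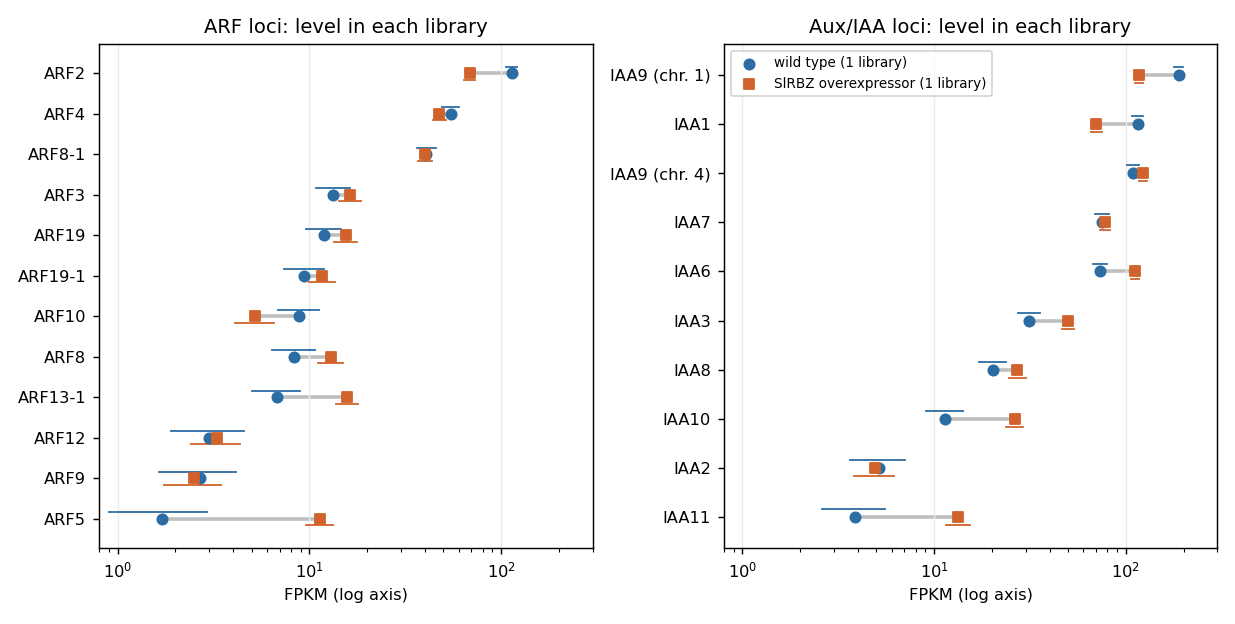
FPKM (log axis) of 12 ARF loci (left) and 10 Aux/IAA loci (right) in the wild-type library (blue circles) and the overexpressor library (orange squares), with thin bars for 95% counting intervals at an assumed effective length of 1 kb. ARF5 and IAA11 have the longest grey connecting lines, and ARF2, IAA1 and IAA9 on chromosome 1 shift to lower values.

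Of the Aux/IAA repressor genes, IAA11 differed most. IAA11 (chromosome 3, plus strand, 62855821 to 62857611) read 3.87 FPKM in CK-1 (interval 2.59 to 5.56) and 13.4 in OV-5-1 (interval 11.5 to 15.4). The intervals were apart, the difference was 1.56, or 2.95-fold, and the plain ratio of 3.46 had an interval of 2.33 to 5.29. It exceeded the difference at 94.7% of gene loci of like level. IAA11 was the lowest Aux/IAA locus in CK-1, and in OV-5-1 it stood above IAA2.

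IAA10, the other higher repressor gene, is a synonym of IAA17 in RefSeq, a gene known in tomato for limiting fruit size. It lies on chromosome 6 (plus strand, 2498340 to 2501460). It read 11.4 FPKM in CK-1 (interval 9.09 to 14.1) and 26.4 in OV-5-1 (interval 23.8 to 29.2). The difference was 1.15, or 2.21-fold, with a ratio interval of 1.83 to 2.98. IAA10 was eighth of the 10 Aux/IAA loci in both libraries.

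A further group of Aux/IAA loci was higher by less than 2-fold. IAA3, which in tomato links auxin and ethylene responses, read 31.4 FPKM in CK-1 and 50.1 in OV-5-1, a difference of 0.66. The IAA3 locus overlaps Solyc09g065840.2 on the opposite strand, which read 53.2 and 23.6 FPKM. Whether counting used strand is not given in the sources used here, so reads of the shared stretch may be assigned to either. IAA6, a synonym of IAA27 in RefSeq, read 73.6 and 111 FPKM, a difference of 0.59 with a ratio interval of 1.37 to 1.67. IAA8 read 20.2 and 27.2 FPKM, a difference of 0.41. In RefSeq IAA8 is a synonym of IAA15 on chromosome 3, where this locus lies, and the symbol of another gene on chromosome 12.

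Both loci named IAA9 were abundant, and as deposited they differed in opposite directions. IAA9 is known in tomato as ENTIRE, whose loss turns the compound leaf into a simple one. The locus on chromosome 4, where RefSeq places IAA9, read 109 FPKM in CK-1 and 123 in OV-5-1, a difference of 0.18 with a ratio interval of 1.04 to 1.24. The locus named IAA9 on chromosome 1 read 188 and 117 FPKM, a difference of −0.69 with a ratio interval of 0.576 to 0.665. Gene loci of like level had a median difference of −0.53, and 44.7% of them had a lower difference than this locus. RefSeq lists no IAA9 on chromosome 1, so which gene that symbol stands for is unsure. Within a library, the chromosome 1 locus stood at 173% of the chromosome 4 locus in CK-1 and at 94.6% in OV-5-1.

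IAA1 read 115 FPKM in CK-1 and 70.2 in OV-5-1, a difference of −0.71 with a ratio interval of 0.555 to 0.668. Gene loci of like level had a median difference of −0.47, and 41.4% of them had a lower difference than IAA1. IAA7 read 75.1 and 77.8 FPKM and IAA2 read 5.16 and 4.91 FPKM, both with ratio intervals on either side of 1. Of the 10 Aux/IAA loci, 7 had a positive and 3 a negative difference, against 7 and 6 of the 13 ARF loci. Over all gene loci 47.2% were above 0.

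**Figure D3:**
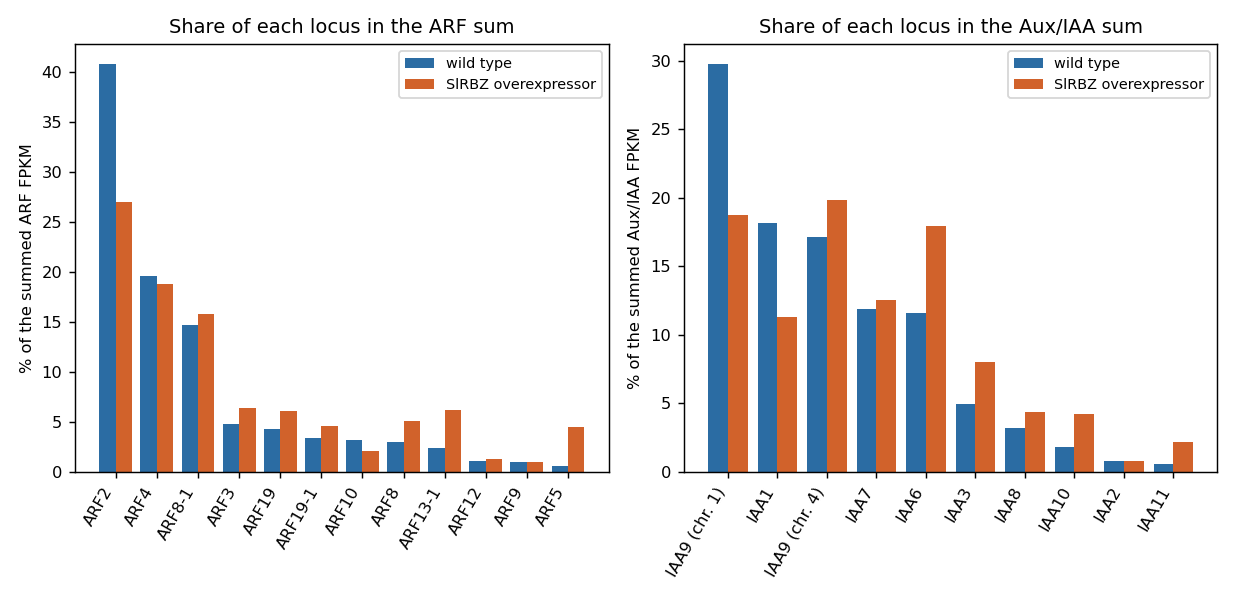
Share of 12 single loci in the summed FPKM of the 13 ARF loci (left) and of the 10 Aux/IAA loci (right) in CK-1 (blue) and the overexpressor (orange), as a percentage. ARF2 takes 40.8% and then 27.0% of its sum and IAA9 on chromosome 1 takes 29.7% and then 18.8%, while ARF5 and IAA11 take larger shares.

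The range of levels was narrower in OV-5-1, for the ARFs largely through a pair of loci. The highest ARF stood 66.3-fold above the lowest in CK-1 and 27.3-fold in OV-5-1, and the highest Aux/IAA locus 48.6-fold and 25.1-fold. Without the joined ARF2 locus the ARF range was 31.9-fold and 18.99-fold, and without ARF5 as well it was 20.3-fold and 18.99-fold. The order changed at the top: IAA9 on chromosome 1 led the Aux/IAA loci in CK-1 at 188 FPKM, and IAA9 on chromosome 4 led in OV-5-1 at 123 FPKM. The intervals of that pair in OV-5-1, 111 to 122 and 118 to 129, overlap. The spread over all gene loci was smaller too: the standard deviation of log2(FPKM + 1) was 2.25 in CK-1 and 1.88 in OV-5-1, and over the 23 members 1.89 and 1.64.

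The 4 higher loci were all under 20 FPKM in CK-1, as were 13 of the 23 members, and 0 of the 10 members at or above 20 FPKM were called in either direction. The CK-1 value is part of the difference, so a split on it favours higher calls among loci low in CK-1. Background calls, split here by the mean of both libraries, also depended on level. Among gene loci with a mean of 5 to 10 FPKM, where ARF5 and IAA11 lie, 12.3% were at least 2-fold higher and 8.41% lower. At 10 to 20 FPKM, where ARF13-1 and IAA10 lie, the shares were 8.51% and 8.70%. At 20 to 50 FPKM they were 7.77% and 14.1%. At 50 to 200 FPKM, where most of the abundant Aux/IAA loci lie, they were 6.53% and 30.0%. The members there are ARF2, ARF4, IAA1, IAA6, IAA7 and both IAA9 loci. None of them was called lower, but they are too few to set against that share.

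How the libraries are scaled to each other shifts all differences. With equal upper quartiles the median of all gene loci moved to 0.18, and with equal sums outside the 100 most abundant loci to 0.57. The 4 loci stayed at least 2-fold higher under both. Relative to the median of all gene loci, the ARF median was 0.15 as deposited, 0.11 at equal upper quartiles and 0.06 without the most abundant loci, and the Aux/IAA median 0.34, 0.36 and 0.38. Without the most abundant loci ARF8, IAA3, IAA6 and IAA8 passed the 2-fold limit as well. ARF4, ARF8-1, ARF9 and IAA2, slightly below 0 as deposited, lay above 0 under both of these scalings. ARF2, ARF10, IAA1 and IAA9 on chromosome 1 stayed below 0 under both, but without the most abundant loci only slightly. There they read −0.06, −0.09, −0.05 and −0.03, and 0 of the 23 ratio intervals lay wholly below 1. Scaled to equal sums over all loci, which moved the median of all gene loci to 2.76, every one of the 23 loci lay above 0, and the same count of 4 stood at least 2-fold above that median.

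**Figure D4:**
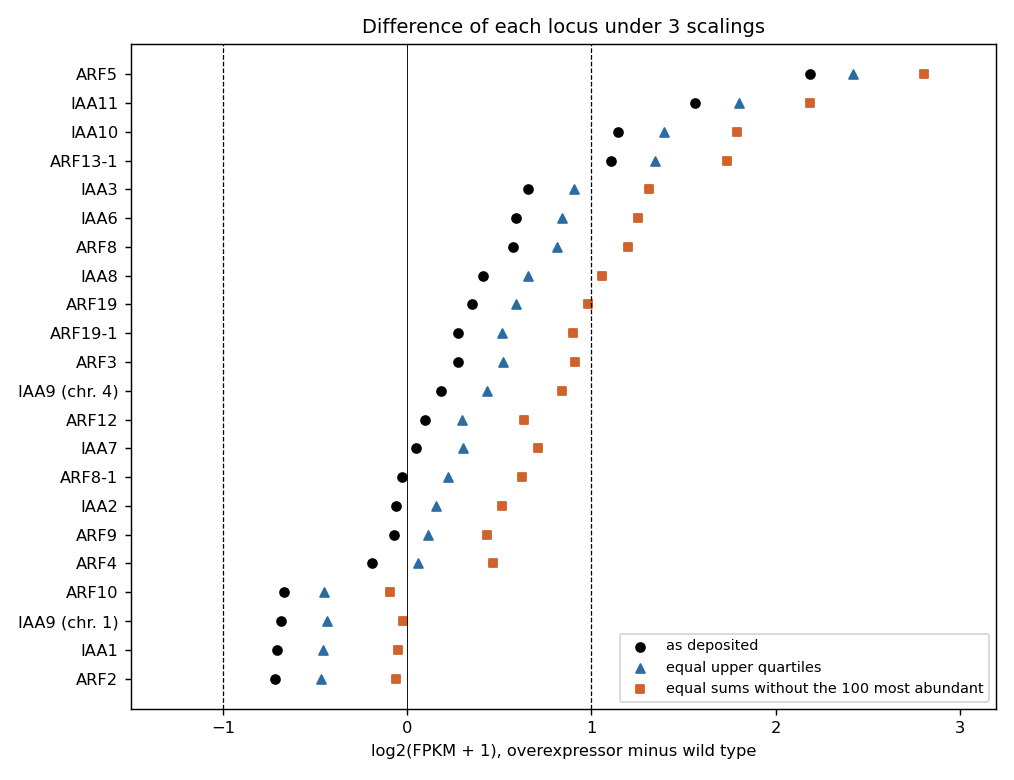
Difference in log2(FPKM + 1), OV-5-1 minus CK-1, of 22 of the 23 loci as deposited (black circles), at equal upper quartiles (blue triangles) and at equal sums without the 100 most abundant gene loci (orange squares), with dashed lines at a 2-fold difference. ARF5, IAA11, IAA10 and ARF13-1 lie beyond the right line under all 3 scalings.

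The members are spread over 10 chromosomes, and few lie together. IAA11 and IAA8 are neighbours on chromosome 3 in the same orientation, 5742 bp apart with 0 gene loci between them, and IAA6 follows 65.8 kb further on. IAA11 stood at 19.1% of the IAA8 level in CK-1 and 49.2% in OV-5-1. IAA7 and IAA1 lie back to back on chromosome 6, 23.2 kb apart and also with 0 gene loci between them. IAA1 stood at 153% of IAA7 in CK-1 and at 90.2% in OV-5-1. Neighbouring Aux/IAA genes thus differed unequally between the libraries.

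The genes next to the higher members did not share one direction. The nearest gene locus to ARF5, Solyc04g081230.2, lies 273 bp away and read 28.8 FPKM in CK-1 and 22.3 in OV-5-1, and the nearest on the other side read 59.0 and 78.8 FPKM. On one side of ARF13-1, Solyc05g056030.2 was given as 0 in CK-1 and as 8.23 FPKM in OV-5-1. On its other side Solyc05g056050.2 read 2752 and 366 FPKM. The genes beside IAA10 read 41.1 and 24.2 FPKM (Solyc06g008580.2) and 7.37 and 7.98 FPKM (Solyc06g008600.2). Of the 7 flanking gene loci of the 4 higher members, leaving out members themselves, 1 was higher and 1 lower (median 0.10). Of the 35 beside the other members, 4 were higher and 2 lower (median 0.00). Over all gene loci 11.6% were higher and 15.0% lower, and the flanking loci are too few to set against those shares.

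**Figure D5:**
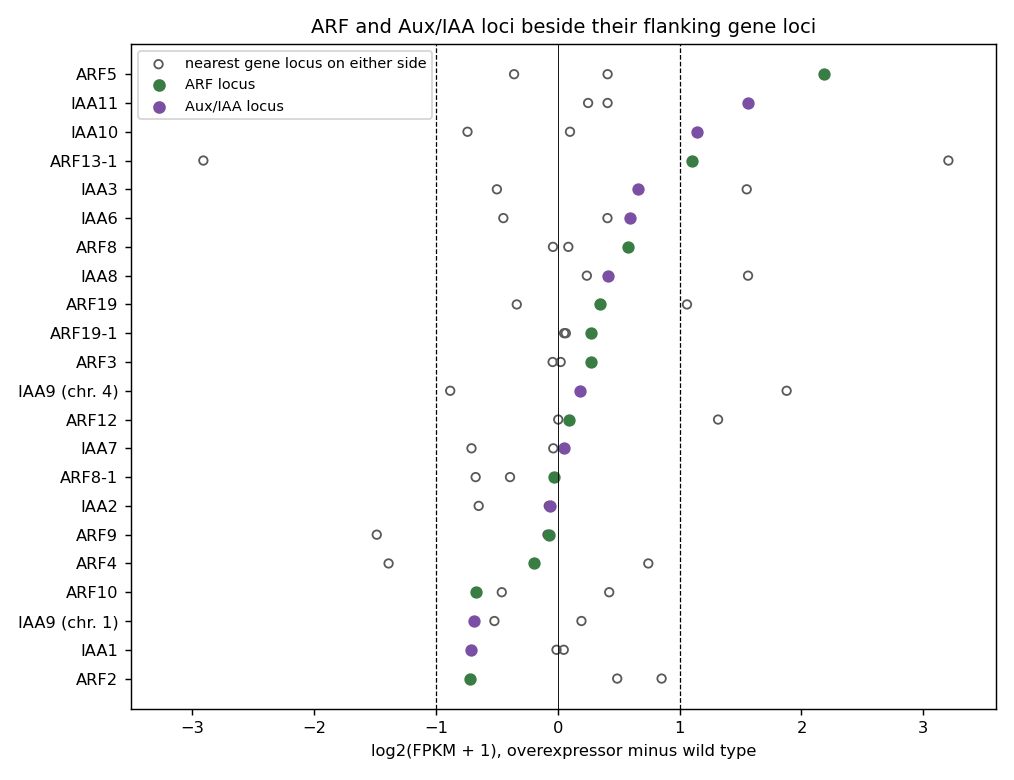
Difference in log2(FPKM + 1), OV-5-1 minus CK-1, of 12 ARF loci (green) and 10 Aux/IAA loci (purple) and of the nearest gene locus on either side (open circles), with dashed lines at a 2-fold difference. Open circles beside ARF5 and IAA10 lie on both sides of 0, and those beside ARF13-1 lie far out in opposite directions.

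Few loci in the table carry a symbol for other steps of the auxin pathway, and loci with an identifier only could not be searched. FZY genes encode flavin monooxygenases of the YUCCA type, which make auxin. FZY4 read 0.875 FPKM in CK-1 and 3.67 in OV-5-1, 2.49-fold higher with a plain ratio interval of 1.76 to 10.2. FZY6 read 3.45 and 5.07 FPKM, a difference of 0.45 with an interval on both sides of 1. The pattern that selected these 2 loci matched 5 in all, of which 1 was higher and 0 lower. The others were ARG1, ARG2 and TPLD, which matched by their letters and are not described here as auxin genes. FZY4 lies at a mean of 1 to 5 FPKM, where 26.5% of all gene loci were higher and 6.30% lower.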

How the data were processed

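The values deposited by the authors are FPKM for each locus, per the file headers, in 1 column per library. The submitters' processing notes name TopHat. No counting tool, annotation or build is stated in those notes. Sample titles identified both columns, and 0 columns of values remained unassigned. Members were found by symbol, and 17 of the 23 matched RefSeq (SLM_r2.1 assembly) on the same chromosome, 9 by symbol and 8 by synonym. That table was used for names only. Sequences were not used here.

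Differences were computed in Python 3.11.15 (pandas 2.3.3, SciPy 1.17.1) as log2(FPKM + 1), with a filter at a mean of 1 FPKM and a call at 2-fold. With 1 library per genotype no test was run. Scaling totals were fitted to values of up to 40 fragments at unstranded gene-free loci of at least 300 bp. Within a tolerance of 0.05, whole fragments made up 85.9% of 1862 values in OV-5-1 and 84.6% of 1975 in CK-1. The fit was tested on data simulated under the same model, which could not show whether the member loci follow that model. Intervals are exact Poisson for levels and exact binomial (Clopper-Pearson) for ratios. ARF types were assigned by name from Arabidopsis. The members and lists were chosen with earlier results of these data known, every member may be named, and the alternatives varied pseudocount, filter, scaling and joined loci. Values of 1 ARF locus and of loci named for auxin carriers are not reported here.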

Additional observations from a re-analysis of the deposited data

How the results depend on the processing

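With a single library of each genotype, no alternative gives a test, and no replicate could be left out. No paired analysis was possible because each genotype has 1 library. The 4 higher loci were called under every pseudocount, filter and scaling tried, and 0 members were called lower under any of them. At equal upper quartiles the ARF median was 0.30 and the Aux/IAA median 0.54. At equal sums without the 100 most abundant loci the medians were 0.63 and 0.95, 5 Aux/IAA loci were higher, and 4946 gene loci were higher against 1149 lower. At equal sums over all loci every member was higher (13 ARF and 10 Aux/IAA loci, medians 2.87 and 3.19), as were 16745 gene loci against 62 lower. That scaling follows a 34 bp locus holding 89.8% of the wild-type sum. At a filter of 5 FPKM, which removed 3 of the low ARF loci, the ARF median was 0.28, and 1249 gene loci were higher. The pseudocounts of 0.1 and 0.5, the absence of a filter and the removal of joined loci moved each of these counts by less than 1.5 times and each median by less than 0.1. Depth limits the low loci most: ARF5 rests on about 12.8 fragments per kb in wild type.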
